A study of Mus musculus with 6 samples.

Results

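DNA repair genes were compared between parental and axitinib-resistant cells of 4T1, a mouse mammary carcinoma line. The 44 genes were taken by symbol from a list of homologous recombination, Fanconi anemia, mismatch repair, end joining and checkpoint genes together with break sensors, poly(ADP-ribose) polymerases and helicases, out of 53465 genes in the table of estimated counts. All 44 were found once and all 44 passed the filter on low counts, which left 13550 genes. The lowest count of any of the 44 in a library was 39 reads, for Rad51b.

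RNA was sequenced from 3 libraries of parental (P) cells and 3 libraries of axitinib-resistant (AxR) cells. Axitinib inhibits the receptors for vascular endothelial growth factor. AxR cells were derived from metastatic lesions of lung or lymph node in Balb/c mice that received axitinib at 100 mg/kg/day both before and after surgery on the primary tumor, and were then kept for more than 2 months in 0.5 μM axitinib. P cells are the 4T1 line they came from, described as vehicle-treated. Both lines were grown in RPMI medium with 5% fetal bovine serum, and the growth labels name 0.5 μM axitinib for all 6 samples although the treatment labels give it for AxR only. The AxR libraries come from 1 derived line, so line and drug exposure cannot be told apart. The sources do not say whether replicates were separate cultures, so the p-values measure only the spread between these libraries.

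Cells mend DNA by several routes. Homologous recombination copies an intact sister chromatid, end joining ligates broken ends directly, the Fanconi anemia pathway unhooks crosslinks between strands, and mismatch repair corrects errors of replication. The kinases ATM and ATR sense breaks and stalled forks and pass the signal to CHK2 and CHK1, which hold the cell cycle, and several genes of recombination and of the Fanconi pathway are transcribed mainly in S and G2 phase.

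Libraries held between 15495260 and 17294525 estimated counts. AxR replicate 3 stood apart from the other AxR libraries on the second principal component (24.45 against -14.15 and -9.9), an axis with 4.80% of the variance, while the first, with 84.3%, separated the lines. Epithelial markers summed to between 1893 and 2116 CPM (counts scaled by the size of the library) in P and between 3005 and 3185 CPM in AxR, with all 8 of 8 tested. The sum was carried by Krt7, Krt8, Krt18 and Cdh1, while Cldn7 went from a mean of 8.22 to 0.751 CPM and Krt19 from 8.88 to 3.56 CPM. None of the 7 fibroblast, 7 leukocyte, 5 endothelial or 4 lung epithelial markers passed the filter. Their summed levels ran from 0.577 to 0.973 CPM in P and from 0.569 to 1.28 CPM in AxR for fibroblasts, from 0.0577 to 0.0652 CPM and from 0 to 0.128 CPM for leukocytes, from 0.425 to 0.693 CPM and from 0.191 to 0.383 CPM for endothelium, and from 0 to 0.173 CPM and from 0 to 0.0569 CPM for lung epithelium. In bulk RNA, fewer cells in a given state and less RNA per cell cannot be told apart.

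The repair routes did not move as a block. Of the 44 genes, 18 were higher in AxR, 9 were lower and 17 were not called, by the quasi-likelihood test of edgeR at a threshold of 0.05 after Benjamini-Hochberg adjustment over the 13550 genes. The genes called made up 61.4% of the 44, against 63.5% of all genes tested. By direction, 40.9% of the repair genes were higher against 32.8% of all genes, and 20.5% were lower against 30.8%. Their median log2 fold change was 0.22, against 0.01 over all genes tested. In 29 of the 44 genes the P and AxR libraries did not overlap, 19 with AxR above and 10 with AxR below, while 68.3% of all genes were separated in this way. Changes were mostly modest: 3 of the 44, Chek2, Fanci and Rad54l, passed the test with a log2 fold change of 1 or more in size, all of them higher in AxR, against 12.7% of all genes. A further 19 of the 27 genes called changed by less than 0.5 on the log2 scale.

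**Figure D1:**
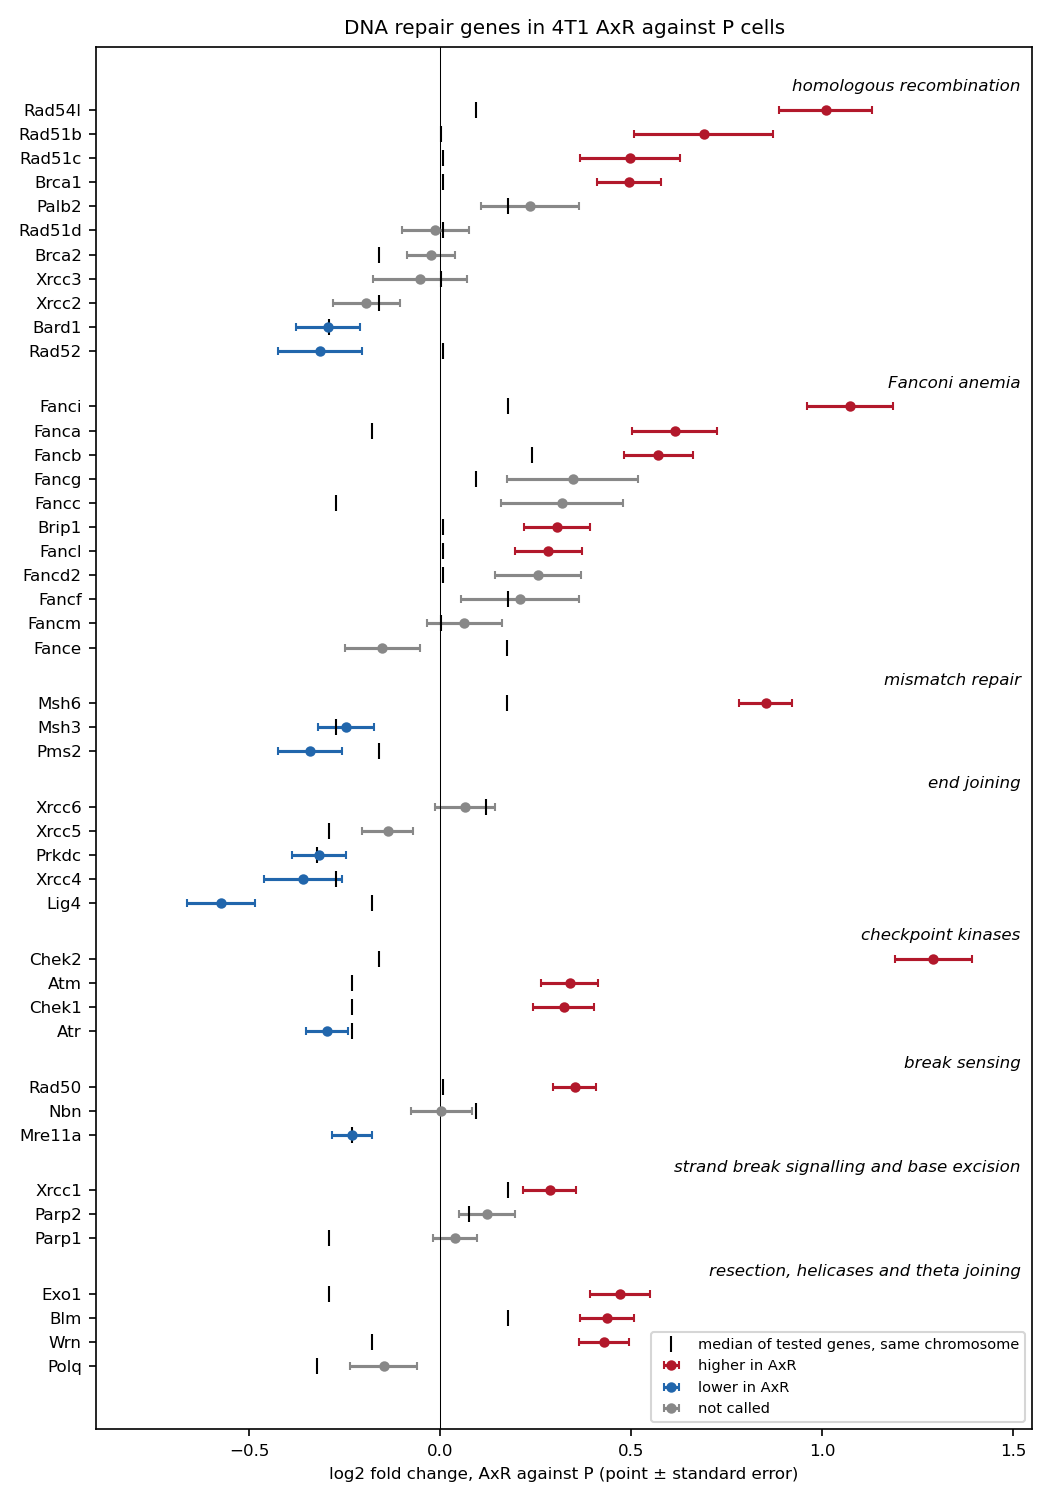
The log2 fold change of AxR against P is plotted on the horizontal axis for each of the 44 repair genes, grouped by route, with bars for the standard error (3 libraries per line) and colors for the call. Black ticks mark the median of the tested genes on the same chromosome. Chek2, Fanci and Rad54l lie at 1 or above, the called end joining genes lie to the left of 0, and the Fanconi anemia genes that were called lie to the right.

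Among the genes chosen for each route, those of Fanconi anemia and the checkpoint kinases leaned upward and those of end joining downward. For comparison, 32.8% of the 13550 genes were called higher and 30.8% lower. Of 11 Fanconi anemia genes 5 were higher and none was lower (median 0.31), whereas of 5 end joining genes none was higher and 3 were lower (median -0.32). Among 4 checkpoint kinases 3 were higher and 1 was lower (median 0.33), and among 4 genes of resection, unwinding and theta-mediated joining 3 were higher (median 0.43). Homologous recombination was split, with 4 higher and 2 lower of 11 genes (median -0.01). Mismatch repair had 1 higher and 2 lower of 3 (median -0.25), the break sensors had 1 in each direction of 3 (median 0.00), and the strand break signalling and base excision genes had 1 higher of 3 (median 0.12). With 3 to 11 genes in a route, these counts are descriptions, and no test of a difference between routes was made. The routes and the other lists were chosen with earlier results of these data known. The leanings and their contrast with all genes are therefore not independent of the data. Genes listed apart did not share the leanings. Other Fanconi anemia genes had 2 higher and 4 lower of 11, and other checkpoint genes 5 and 7 of 17. Other end joining genes had 2 and 2 of 12. After subtraction of chromosome medians, the route medians were 0.28 for Fanconi anemia, 0.56 for the checkpoint kinases and -0.06 for end joining.

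**Figure D2:**
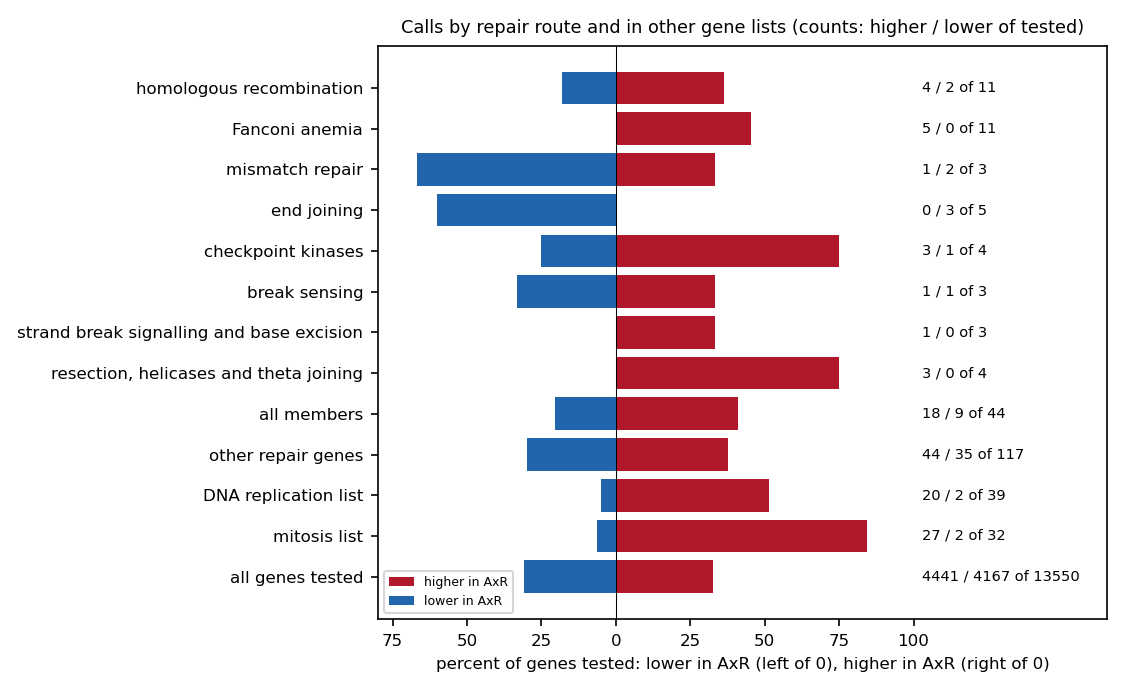
Bars give the percent of tested genes in each list that were lower (left of 0) or higher (right of 0) in AxR at an adjusted p under 0.05, with the counts at the right. Fanconi anemia has bars on the right side only and end joining on the left side only, while all genes tested have 32.8% and 30.8%.

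The checkpoint kinases held the largest change of the set. Chek2 encodes CHK2, the kinase that ATM activates at breaks, and lies at chr5:110839979-110874145 on the plus strand (GRCm38). Its level was 9.12, 8.14 and 8.67 CPM in P replicates 1 to 3 and 19.6, 23.6 and 20.4 CPM in AxR replicates 1 to 3. All AxR libraries were above all P libraries, and the mean rose from 8.64 ± 0.489 to 21.2 ± 2.14 CPM (SD, n = 3), a 2.45-fold increase (log2 fold change 1.29 ± 0.10 SE, edgeR adjusted p = 3.06e-08). The median gene on chromosome 5 moved the other way, by -0.16 on the log2 scale.

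Atm, Atr and Chek1 all lie on chromosome 9, where the median log2 fold change of 757 tested genes was -0.23. Atm, the kinase recruited to broken ends, had 48.4, 43.2 and 46.1 CPM in P and 64.4, 56.4 and 53.6 CPM in AxR. It was 1.27-fold higher in AxR (log2 fold change 0.34 ± 0.07 SE, edgeR adjusted p = 0.000938). Chek1, whose kinase acts downstream of ATR at stalled forks, had 50.8, 51.2 and 53.5 CPM in P and 73.2, 64.9 and 56.7 CPM in AxR. This was a 1.25-fold increase in which the lowest AxR library stood just above the highest P library (log2 fold change 0.32 ± 0.08 SE, edgeR adjusted p = 0.00251). Atr went down, from 109, 105 and 106 CPM in P to 93.0, 83.2 and 85.4 CPM in AxR. The lines did not overlap, and Atr was 1.23-fold lower in AxR (log2 fold change -0.30 ± 0.06 SE, edgeR adjusted p = 0.000261). Subtracting the chromosome median left -0.07 for Atr, 0.57 for Atm and 0.55 for Chek1.

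Beyond the kinases, 5 of 17 other checkpoint genes were higher and 7 were lower (median -0.15). Rad9a, a subunit of the clamp that helps ATR to signal, was lower (log2 fold change -0.95 ± 0.07 SE, edgeR adjusted p = 1.64e-08). H2afx, the histone variant phosphorylated around breaks, was higher by 0.90 ± 0.08, and Clspn, the adaptor through which ATR activates CHK1, was higher by 0.65 ± 0.10 on the log2 scale.

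Fanci stood out among the Fanconi anemia genes. It encodes the partner of FANCD2 in the pair that is monoubiquitinated at crosslinks, and lies at chr7:79391929-79450264 on the plus strand. The P libraries had 6.08, 7.51 and 6.72 CPM and the AxR libraries 15.4, 13.7 and 13.8 CPM. Each AxR library was far above each P library, and Fanci was 2.11-fold higher (log2 fold change 1.07 ± 0.11 SE, edgeR adjusted p = 7.87e-07). Fancd2 itself had 14.1, 16.7 and 14.9 CPM in P and 21.6, 17.28 and 15.9 CPM in AxR. Here the lines overlapped, since AxR replicate 3 lay below P replicate 2, and the change did not pass the test (log2 fold change 0.26 ± 0.11 SE, edgeR adjusted p = 0.0597). Fancd2 passed it when AxR replicate 3 was left out (adjusted p = 0.00896), when P replicate 2 was left out (adjusted p = 0.0327), and with no low-count filter (adjusted p = 0.0221).

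Of the core complex, which attaches ubiquitin to that pair, Fanca, Fancb and Fancl were higher in AxR. Fanca, at chr8:123268300-123318576 on the minus strand, had 14.6, 17.7 and 13.5 CPM in P and 26.9, 21.2 and 22.1 CPM in AxR. All AxR libraries were above all P libraries (1.53-fold, log2 fold change 0.61 ± 0.11 SE, edgeR adjusted p = 0.000254), on a chromosome whose median was -0.18. Fancb, which holds the catalytic module together with FANCL and FAAP100 and lies at chrX:164980592-164997272 on the plus strand, had 11.8, 11.8 and 12.3 CPM in P and 18.9, 18.2 and 16.3 CPM in AxR. It was also separated (1.49-fold, log2 fold change 0.57 ± 0.09 SE, edgeR adjusted p = 5.45e-05). Fancl, the ubiquitin ligase of the complex, rose by 0.28 ± 0.09 on the log2 scale (edgeR adjusted p = 0.0102), with AxR replicate 3 the closest to P at 18.5 CPM against a highest P library of 17.32 CPM.

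Fancc, Fancg, Fancf and Fance, also of the core complex, were not called. Their log2 fold changes were 0.32 ± 0.16, 0.35 ± 0.17, 0.21 ± 0.15 and -0.15 ± 0.10 (SE), and the lines overlapped in each. Fancc, Fancg and Fancf were expressed at means of 3.93 to 5.57 CPM in P, where the standard errors were wide. Fancc was called when AxR replicate 2 was left out (adjusted p = 0.0217) and Fancf and Fancg when P replicate 3 was left out (adjusted p = 0.0362 and 0.0377), all by edgeR and all higher in AxR. Fancm, the translocase that recruits the complex to DNA, had 19.2, 19.4 and 17.34 CPM in P and 21.6, 20.5 and 16.6 CPM in AxR, which overlapped at both ends (log2 fold change 0.06 ± 0.10, edgeR adjusted p = 0.596). Brip1, the helicase that binds BRCA1, had 21.1, 21.4 and 20.99 CPM in P and 29.2, 26.3 and 23.2 CPM in AxR, and was 1.24-fold higher with no overlap (edgeR adjusted p = 0.00605).

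Of 11 other Fanconi anemia genes 2 were higher and 4 were lower (median -0.10). Fan1, a nuclease, rose by 0.56 ± 0.15 and Faap24, which binds FANCM, by 0.51 ± 0.11, while Faap20 was lower at -0.42 ± 0.10 on the log2 scale.

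In homologous recombination, the largest change was in Rad54l, the motor protein that helps the recombinase filament to invade the template. The gene lies at chr4:116094264-116123690 on the minus strand. Its level was 10.4, 12.2 and 11.5 CPM in P and 27.8, 20.4 and 20.7 CPM in AxR. AxR replicate 1 was the highest library, and the lines were well separated (2.01-fold, log2 fold change 1.01 ± 0.12 SE, edgeR adjusted p = 5.76e-06). Of the recombinase paralogs, Rad51b, at chr12:79297282-79814690 on the plus strand, had 2.67, 2.54 and 2.54 CPM in P and 4.76, 4.40 and 3.41 CPM in AxR. It was 1.61-fold higher (log2 fold change 0.69 ± 0.18 SE, edgeR adjusted p = 0.00393). Rad51c, with 5.84, 5.37 and 6.06 CPM in P and 7.75, 9.25 and 7.40 CPM in AxR, was 1.41-fold higher (log2 fold change 0.50 ± 0.13 SE, edgeR adjusted p = 0.00382).

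The other paralogs were not called. Rad51d showed the smallest change of the route, with 14.2, 16.4 and 15.8 CPM in P and 14.8, 15.8 and 15.4 CPM in AxR, so that the AxR libraries lay inside the range of P (log2 fold change -0.01 ± 0.09 SE, edgeR adjusted p = 0.916). Xrcc3 overlapped as well (-0.05 ± 0.12). Xrcc2 was lower in all AxR libraries, at 11.9 to 12.5 CPM against 13.8 to 14.4 CPM in P, but did not pass the test (log2 fold change -0.19 ± 0.09 SE, edgeR adjusted p = 0.0684).

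Brca1 and its partner moved in opposite directions. Brca1 encodes a ubiquitin ligase subunit that promotes resection and loading of the recombinase, and had 34.2, 37.2 and 33.6 CPM in P and 55.3, 49.2 and 43.7 CPM in AxR. Every AxR library exceeded every P library (1.41-fold, log2 fold change 0.50 ± 0.08 SE, edgeR adjusted p = 9.99e-05). Bard1, with which BRCA1 forms a dimer, had 50.02, 56.9 and 53.3 CPM in P and 48.6, 44.1 and 38.2 CPM in AxR. Bard1 was 1.23-fold lower, with AxR replicate 1 just under P replicate 1 (log2 fold change -0.29 ± 0.08 SE, edgeR adjusted p = 0.00627), and chromosome 1, where it lies, had a median of -0.29. Brca2, which loads the recombinase, was at 83.3 to 87.4 CPM in P and 79.2 to 92.5 CPM in AxR (log2 fold change -0.02 ± 0.06 SE, edgeR adjusted p = 0.772). Palb2, the bridge between BRCA1 and BRCA2, was separated, at 5.67 to 6.005 CPM in P and 6.20 to 7.56 CPM in AxR, but not called (log2 fold change 0.24 ± 0.13 SE, edgeR adjusted p = 0.121).

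Rad52, which anneals single strands, was the lowest of the route. P libraries had 13.6, 15.0 and 12.8 CPM and AxR libraries 10.4, 10.1 and 12.7 CPM, with AxR replicate 3 almost level with P replicate 3. The log2 fold change was -0.31 ± 0.11 SE (edgeR adjusted p = 0.0207). The call was lost without P replicate 2 (adjusted p = 0.0971), without AxR replicate 1 (adjusted p = 0.0696) and without AxR replicate 2 (adjusted p = 0.0975), all by edgeR. Of the 27 called repair genes, Rad52 was the only one whose call at the 0.05 threshold was lost under a refit listed in the closing section. At a threshold of 0.01 Fancl lost its call too.

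Of 24 other genes of homologous recombination 14 were higher and 3 were lower (median 0.31). These are 58.3% and 12.5%, against 32.8% and 30.8% of all genes tested. Mnd1, which stimulates strand invasion, rose by 1.04 ± 0.13 and Mcm9, of a helicase that works with MCM8, by 0.82 ± 0.08 on the log2 scale. Rtel1, a helicase that takes apart recombination loops, was lower at -0.89 ± 0.07. Each of these passed edgeR's test, with an adjusted p of at most 3.45e-06.

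The mismatch repair genes split between the partners of the recognition complexes. MSH6 forms the dimer that reads single mismatches and MSH3 the one that reads larger loops. Msh6, at chr17:87975062-87990892 on the plus strand, had 74.8, 72.3 and 69.2 CPM in P and 142, 132 and 116 CPM in AxR. The AxR libraries were all far above P, and Msh6 was 1.81-fold higher (log2 fold change 0.85 ± 0.07 SE, edgeR adjusted p = 7.1e-08). Msh3 had 24.2, 23.8 and 24.0 CPM in P and 21.2, 19.2 and 20.3 CPM in AxR, a small decrease without overlap (1.19-fold lower, log2 fold change -0.25 ± 0.07 SE, edgeR adjusted p = 0.00828). Its chromosome, 13, had a median of -0.27, and subtracting it turned the sign of the Msh3 value, to 0.03. Pms2, of the nuclease that follows recognition, had 20.7, 22.2 and 20.3 CPM in P and 18.2, 16.1 and 15.8 CPM in AxR (1.27-fold lower, edgeR adjusted p = 0.00238). Pms2 shares 394 exon bases with Gm42421 and 85 with Rsph10b on the same strand, so reads there could have been divided among them. Of 3 other mismatch repair genes tested none was higher and 2 were lower, Pms1 at -0.48 ± 0.09 and Mlh3 at -0.26 ± 0.06 on the log2 scale.

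Of the end joining genes, Lig4, Xrcc4 and Prkdc were lower in AxR. Lig4, the ligase that seals the ends, lies at chr8:9969049-9977686 on the minus strand and had 22.7, 23.8 and 24.4 CPM in P and 14.9, 14.6 and 18.0 CPM in AxR. No AxR library reached the P range, although AxR replicate 3 came nearest, and Lig4 was 1.49-fold lower (log2 fold change -0.57 ± 0.09 SE, edgeR adjusted p = 5.02e-05). Xrcc4, the scaffold that holds LIG4, had 11.97, 12.5 and 13.3 CPM in P and 10.3, 10.1 and 9.05 CPM in AxR (1.28-fold lower, edgeR adjusted p = 0.00639). Prkdc, the DNA-dependent protein kinase, had 49.1, 49.5 and 51.9 CPM in P and 42.4, 36.5 and 41.8 CPM in AxR. It was 1.25-fold lower with no overlap (log2 fold change -0.32 ± 0.07 SE, edgeR adjusted p = 0.000965).

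The medians of the chromosomes that carry these 3 genes were also below 0. They were -0.18 for chromosome 8, -0.27 for chromosome 13 and -0.32 for chromosome 16, so that Lig4 lay 0.40 below its chromosome and Xrcc4 0.09 below, while Prkdc was level with its own (0.00). Centered in this way, the median of the end joining genes was -0.06 in place of -0.32.

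Xrcc5 and Xrcc6 encode the Ku subunits that ring the broken end. Xrcc6 had 59.7, 66.7 and 64.2 CPM in P and 60.5, 63.1 and 75.5 CPM in AxR, and the overlap was broad (log2 fold change 0.06 ± 0.08 SE, edgeR adjusted p = 0.494). Xrcc5 had 53.6, 58.4 and 57.1 CPM in P and 55.6, 48.9 and 49.4 CPM in AxR, so that only AxR replicate 1 fell inside the range of P (log2 fold change -0.14 ± 0.07 SE, edgeR adjusted p = 0.085). Without AxR replicate 1, Xrcc5 was called lower (edgeR adjusted p = 0.0194), and scaling by library size alone also called it (adjusted p = 0.0485). Of 12 other end joining genes tested 2 were higher and 2 were lower (median -0.01), among them Paxx, which steadies Ku, at -0.74 ± 0.17, and Dclre1c, which encodes the nuclease Artemis, at 0.37 ± 0.10 on the log2 scale.

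The MRN complex, formed by MRE11, RAD50 and NBS1, binds breaks and activates ATM, and its genes had different changes. Rad50, an ATPase that tethers ends, had 83.9, 79.2 and 86.3 CPM in P and 113, 102 and 104 CPM in AxR (1.28-fold higher, log2 fold change 0.35 ± 0.06 SE, edgeR adjusted p = 6.87e-05). Mre11a, the nuclease, had 97.1, 101.4 and 98.6 CPM in P and 87.6, 82.7 and 82.9 CPM in AxR (1.17-fold lower, log2 fold change -0.23 ± 0.05 SE, edgeR adjusted p = 0.00119). Neither gene had overlapping lines, and Mre11a, on chromosome 9, was level with its chromosome (0.00 after subtraction). Nbn, which encodes NBS1, had 19.7, 22.1 and 23.2 CPM in P and 22.3, 21.1 and 21.7 CPM in AxR, all within the range of P (log2 fold change 0.00 ± 0.08 SE, edgeR adjusted p = 0.974).

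Parp1 and Parp2, the polymerases that mark strand breaks with poly(ADP-ribose), were not called. Parp1 had 108, 105 and 109 CPM in P and 119, 105 and 107 CPM in AxR, with AxR replicate 1 alone above the range of P (log2 fold change 0.04 ± 0.06 SE, edgeR adjusted p = 0.564). Parp2 was at 25.7 to 28.4 CPM in P and 27.7 to 30.6 CPM in AxR (0.12 ± 0.07). Xrcc1, the scaffold for base excision and single-strand break repair, had 24.4, 23.7 and 24.1 CPM in P and 28.3, 29.3 and 30.5 CPM in AxR, a separated 1.22-fold increase (log2 fold change 0.29 ± 0.07 SE, edgeR adjusted p = 0.00206). Of 21 other genes of base excision and single-strand break repair 8 were higher and 7 were lower. Mpg, a glycosylase for alkylated bases, rose by 1.13 ± 0.12, Lig1, the replicative ligase, by 0.97 ± 0.10, and Ung, which removes uracil, by 0.82 ± 0.16 on the log2 scale.

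Exo1, Blm and Wrn rose by similar amounts. Exo1, an exonuclease of resection and mismatch repair, had 18.5, 20.96 and 18.3 CPM in P and 27.6, 26.8 and 25.8 CPM in AxR (1.39-fold, log2 fold change 0.47 ± 0.08 SE, edgeR adjusted p = 8.42e-05), on chromosome 1, whose median was -0.29. Blm, a helicase that dissolves recombination intermediates, had 32.2, 34.9 and 32.9 CPM in P and 49.0, 42.7 and 43.7 CPM in AxR (1.35-fold, edgeR adjusted p = 7.44e-05). Wrn, a related helicase with an exonuclease domain, had 41.5, 40.1 and 42.9 CPM in P and 59.9, 54.8 and 53.0 CPM in AxR (1.35-fold, edgeR adjusted p = 3.64e-05). None of the 3 had an AxR library within the range of P. Polq, the polymerase of theta-mediated joining, was not called, with 24.3, 27.1 and 27.1 CPM in P and 24.5, 20.7 and 25.5 CPM in AxR (log2 fold change -0.15 ± 0.09 SE, edgeR adjusted p = 0.152).

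**Figure D3:**
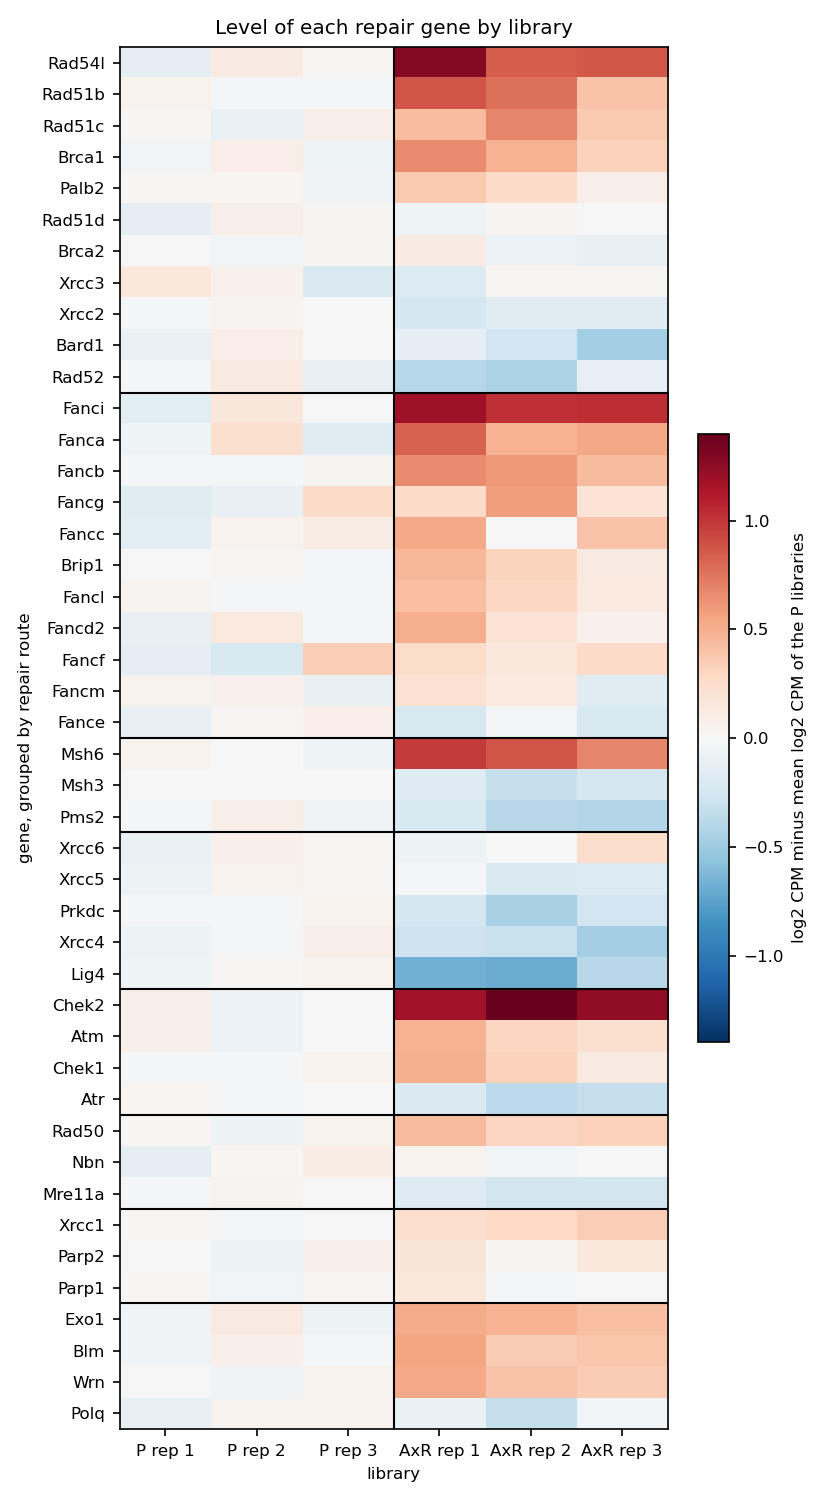
Each cell gives log2 CPM of a repair gene (rows, grouped by route) in a library (columns) minus the mean of the P libraries, on a scale from blue (lower) to red (higher). Chek2, Fanci, Rad54l and Msh6 are red in all 3 AxR libraries and Lig4 is blue in all 3, while the P libraries stay pale.

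Levels per length put the changes in proportion. Divided by exon length, Xrcc5 (22.1 CPM per kb), Parp1 (20.3), Mre11a (16.7) and Msh6 (16.6) were the highest of the 44 in P, and Msh6 was the highest in AxR, at 30.0 CPM per kb. The 3 with the largest fold changes were expressed at far lower levels, with Chek2 going from 2.88 to 7.06, Rad54l from 1.48 to 2.98 and Fanci from 1.17 to 2.47 CPM per kb. Fancc (0.561), Rad51b (0.688) and Palb2 (0.801) were the lowest in P.

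Because many repair proteins work as fixed pairs, the ratio of partner genes within each library was compared over 15 pairs. In 11 pairs the ratios of the P and AxR libraries did not overlap. Taken singly, 68.3% of the 13550 genes already had P and AxR values without overlap. No such share was computed for pairs of other genes, so the count does not set repair partners apart. An exact two-sided permutation test of 3 against 3 libraries cannot go below p = 0.1, the value reached by each of the 11 pairs, and 0.136 after Benjamini-Hochberg adjustment over the 15. The ratio of Msh6 to Msh3 was 3.09, 3.03 and 2.88 in P and 6.70, 6.89 and 5.71 in AxR, a difference of 1.10 on the log2 scale. That of Chek2 to Atm was 0.189 in each P library and 0.304, 0.419 and 0.380 in AxR, a difference of 0.95. Brca1 was below Bard1 in P, with ratios of 0.683, 0.655 and 0.630, and above it in AxR, with 1.14, 1.11 and 1.14. These are ratios of counts, not of counts per length, so they compare libraries and not the amounts of the 2 transcripts.

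Fanci gained on Fancd2, whose ratio to it fell from 2.31, 2.22 and 2.21 in P to 1.404, 1.26 and 1.15 in AxR (log2 difference -0.82). Chek1 gained on Atr by 0.61, Rad51c on Xrcc3 by 0.54, and Rad51d on Xrcc2 by 0.18 on the log2 scale. Mre11a lost 0.58 and Nbn 0.35 against Rad50, Brca2 lost 0.26 against Palb2, and Fancm lost 0.22 against Fancl. The ratios of Xrcc5 to Xrcc6 (difference -0.20, exact permutation p = 0.4), Lig4 to Xrcc4 (-0.23, exact permutation p = 0.4), Parp1 to Parp2 (-0.08, exact permutation p = 0.2) and Blm to Wrn (0.01, exact permutation p = 0.8) overlapped between the lines. For Lig4 and Xrcc4 the overlap came from AxR replicate 3, with a ratio of 1.99 against 1.83 to 1.91 in P and 1.44 in both other AxR libraries.

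**Figure D4:**
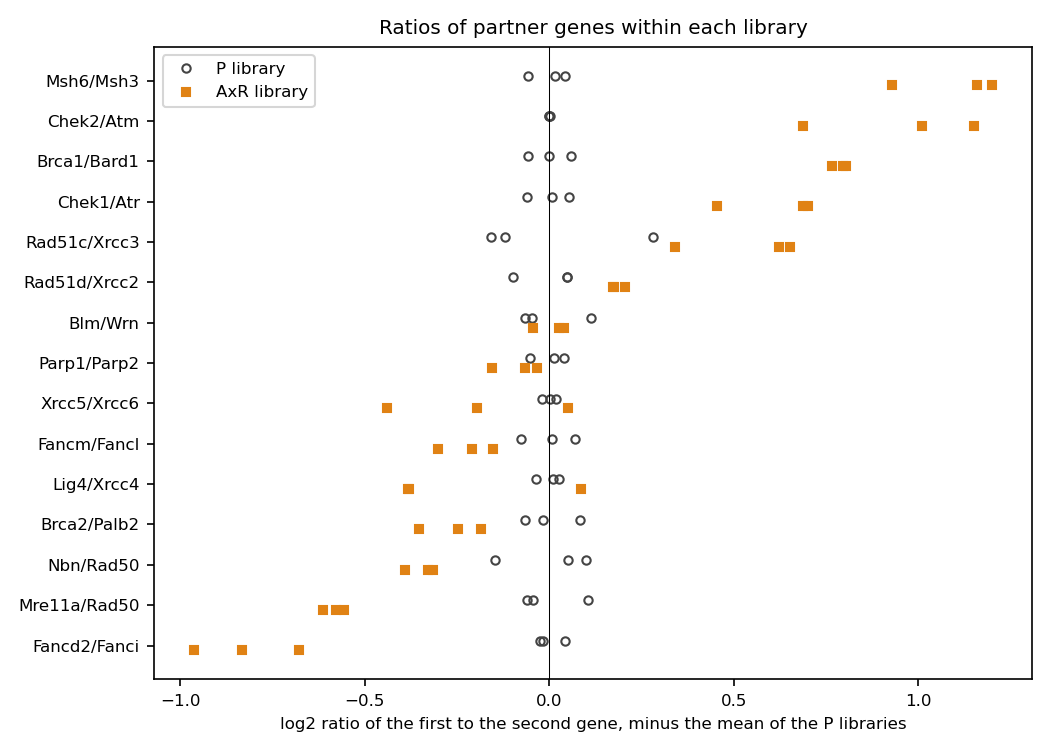
For each of 15 pairs, the log2 ratio of the first to the second gene is plotted per library after subtraction of the mean of the P libraries, with open circles for P and squares for AxR (3 each). Squares lie to the right of all circles for Msh6/Msh3, Chek2/Atm, Brca1/Bard1, Chek1/Atr, Rad51c/Xrcc3 and Rad51d/Xrcc2, and to the left of all circles for Fancd2/Fanci, Mre11a/Rad50, Nbn/Rad50, Brca2/Palb2 and Fancm/Fancl.

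The changes were set beside the medians of the chromosomes. The 44 genes lie on 15 chromosomes whose medians ranged from -0.32 (chromosome 16) to 0.24 (X). Of the 9 genes called lower, 6 were within 0.1 of their chromosome median on the log2 scale (Bard1, Msh3, Xrcc4, Prkdc, Atr and Mre11a), and of the 18 called higher none was. Over all genes, 11.9% of those called lower and 9.93% of those called higher were as close. These shares are not matched for size of change. All genes called lower include 640 with a log2 fold change of -1 or below, while the largest decrease among the 44 was -0.57. The limit of 0.1 was chosen after the values were seen. All 18 genes called higher were above their chromosome median. The part of chromosome-wide shifts in these changes was not tested.

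Transcripts of proliferating cells also moved. Of 39 genes of DNA replication, 20 were higher and 2 were lower (median 0.26), by the same test. Of 32 genes of mitosis, 27 were higher and 2 were lower (median 0.45). The share called either way was 56.4% for replication and 90.6% for mitosis, against 63.5% of all genes tested. Over all genes tested, 32.8% were higher and 30.8% were lower. The replication licensing gene Mcm2 rose by 0.64 ± 0.07 and the origin recognition gene Orc1 by 0.82 ± 0.16, and among mitotic genes the kinesin genes Cenpe and Kif20a rose by 1.26 ± 0.07 and 1.13 ± 0.07 on the log2 scale.

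In these lists and in the repair genes, AxR replicate 1 was the highest of the AxR libraries most often. It was so in 31 of the 44 repair genes (70.5%), in 34 of 39 replication genes and in 28 of 32 mitosis genes, against 34.4% of all genes tested. AxR replicate 3 was the lowest in 33 replication genes and 27 mitosis genes. Among the repair genes it was the lowest in 19 (43.2%) and AxR replicate 2 in 18 (40.9%), against 38.5% and 26.3% of all genes tested. Relative to the mean of the P libraries, the median of the 44 genes was 0.24, 0.14 and 0.13 on the log2 scale in AxR replicates 1 to 3, that of the Fanconi anemia genes 0.46, 0.29 and 0.18, and that of the end joining genes -0.24, -0.31 and -0.26. The part of cell cycle transcripts in the change of the repair genes was not tested.

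**Figure D5:**
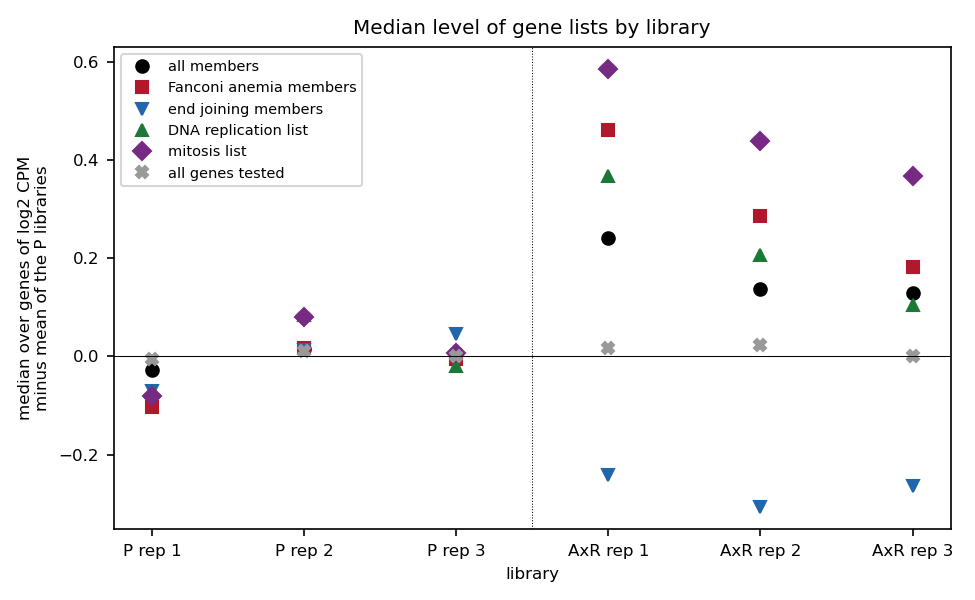
Points give the median over the genes of a list of log2 CPM minus the mean of the P libraries, for each of the 6 libraries on the horizontal axis. Fanconi anemia, DNA replication and mitosis genes are highest in AxR replicate 1 and lowest in AxR replicate 3 among the AxR libraries, the end joining genes are between -0.31 and -0.24 in all 3, and all genes tested stay close to 0.

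Promoters were read for short motifs because several repair genes were higher in AxR. Whether these genes share a regulator was not tested. The 250 bases before the annotated start were available for 36 of the 44 genes (RefSeq, GRCm38.p6). Some of these starts lie downstream of the gene start in GENCODE M21, so that the window falls inside the gene. Fanci, Fancl, Chek1, Xrcc1, Fancc, Xrcc6 and, at its downstream start, Lig4 are among the genes concerned. The CCAAT box, searched as CCAAT on both strands, was present in 11 of 15 genes called higher, 2 of 8 called lower and 6 of 13 not called, against 41.2% of tested genes and 37.5% of all genes with a window. An E2F motif, searched as TTTCCCGC, TTTCGCGC, TTTGCCGC or TTTGGCGC on both strands, was in 1 of 15, 2 of 8 and 3 of 13, against 4.10% of tested genes. The CHR motif (TTTGAA or TTCGAA) was in 0 of 15, 2 of 8 and 1 of 13, against 14.5% of tested genes. The GC box (GGGCGG) was in 9 of 15, 8 of 8 and 7 of 13, against 65.2% of tested genes. None of these motifs contains another. A gene with several starts counted once if any window held the motif, and the CCAAT box was singled out after these counts were seen.

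The box did not follow the direction of change gene by gene. The windows of Rad51c, which was higher, held none, and those of Pms2 and Mre11a, both lower, held 3 and 2. The window of Fanci, the second largest increase, also held none. It lies inside the gene and contains exon bases of Fanci, so it does not show the bases before the gene. Promoter stretches without an annotated exon are shown for Rad54l, Msh6 and Fanca, which rose, and for Lig4, the gene with the largest decrease, with the CCAAT box or its reverse complement in capitals. They are parts of the 250 bases, written 5′ to 3′ on the strand of the gene. For Rad54l (chr4:116123691-116123839, minus strand), which rose by 1.01 on the log2 scale, the stretch holds 1 box. For Msh6 (chr17:87974800-87975049, plus strand), which rose by 0.85, it also holds 1. For Fanca (chr8:123318577-123318826, minus strand), which rose by 0.61, it holds 2. For Lig4 (chr8:9976312-9976561, minus strand, before the gene's downstream start), which fell by 0.57, it holds none. That window lies inside Lig4, so it does not show the bases before the gene. The window at the other start of Lig4 contains exon bases of Abhd13 and Lig4 and is not shown. It held no box either.
Rad54l: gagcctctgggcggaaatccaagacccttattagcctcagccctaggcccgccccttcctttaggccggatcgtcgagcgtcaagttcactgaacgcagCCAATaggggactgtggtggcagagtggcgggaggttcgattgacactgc
Msh6: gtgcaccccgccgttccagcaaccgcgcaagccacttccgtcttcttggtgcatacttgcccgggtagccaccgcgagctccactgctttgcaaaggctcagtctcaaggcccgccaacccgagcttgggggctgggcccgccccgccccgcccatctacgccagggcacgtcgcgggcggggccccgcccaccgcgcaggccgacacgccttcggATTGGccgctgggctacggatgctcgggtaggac
Fanca: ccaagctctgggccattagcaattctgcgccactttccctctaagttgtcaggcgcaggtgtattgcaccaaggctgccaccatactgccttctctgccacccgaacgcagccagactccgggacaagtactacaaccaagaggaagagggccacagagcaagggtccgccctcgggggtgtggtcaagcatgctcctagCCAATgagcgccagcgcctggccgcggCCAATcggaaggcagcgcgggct
Lig4: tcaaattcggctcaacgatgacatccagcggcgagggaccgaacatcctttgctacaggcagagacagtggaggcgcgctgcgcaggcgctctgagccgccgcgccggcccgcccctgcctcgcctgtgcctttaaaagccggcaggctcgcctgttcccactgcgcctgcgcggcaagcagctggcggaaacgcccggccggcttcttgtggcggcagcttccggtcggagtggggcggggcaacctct
A match is a description of these letters and not evidence of binding.

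The kit kept strand but the strand setting of the counting was not given in the sources used here. Exons of 18 of the 44 genes share bases with a gene on the other strand, among them Rad54l (1184 bases with Lrrc41), Fanci (921 with Polg) and Fanca (920 with Zfp276), so their levels carry that uncertainty. Chek2, Brca1, Lig4 and Rad50 share none.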

How the data were processed

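RNA from 3 P and 3 AxR libraries was sequenced by the authors (stranded mRNA libraries). Per the labels and the submitters' processing notes, the tools were FastQC 0.11.5, STAR 2.6.0a and RSEM 1.3.1, on GRCm38 with GENCODE M16. The deposited values are the authors' RSEM estimated counts per gene, before any filter or normalization. Where a read fits more than 1 gene RSEM shares it out, and 10.3% to 10.7% of the 53465 values per library had a fraction. The 53465 include 28603 genes without a count in any library, so the share among genes with counts is larger.

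Estimated counts were rounded, filtered with filterByExpr, normalized by upper quartile (factors 0.966 to 1.02) and tested with edgeR 4.0.16 in R 4.3.3 (quasi-likelihood F test, robust, line as the only term), with Benjamini-Hochberg adjustment over 13550 genes and a threshold of 0.05. CPM is scaled by the normalized library size. Standard errors were derived from the F statistic. Symbols, positions and exon lengths came from GENCODE M21, in which 53360 of 53465 identifiers were found, and promoter windows from RefSeq (GRCm38.p6). The depth was 15495260 to 17294525 estimated counts per library. Partner ratios added 0.5 counts and were tested by exact permutation over the 6 libraries.

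The members, their routes and the other gene lists were chosen with earlier results of these data known. Full values are given for members called with a log2 fold change of 0.5 or more in size and for the largest and smallest change of each route, and up to 3 genes of each other list with the largest changes at 5 CPM or more are named. Counts, medians and member values were recomputed with TMM, library size only, DESeq2 1.42.0, limma-voom (limma 3.58.1), other filters and thresholds, the replicate number as a block, chromosome medians subtracted and each library left out. The test was tried on simulated counts. Shld3 was not matched and is not analysed here, and some genes that the naming rule or the overlaps would give are not reported here.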

Additional observations from a re-analysis of the deposited data

How the results depend on the processing

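Of 572 refitted values of the 44 genes, 561 kept their side of the threshold, 3 lost the call (all Rad52) and 8 gained one (Fancc, Fancd2, Fancf, Fancg and Xrcc5). No called member changed sign, while 16 values of 7 members that were not called did (Brca2, Rad51d, Xrcc3, Fancm, Xrcc6, Nbn and Parp1, between -0.0563 and 0.0354). Over the refits, between 18 and 20 members were called higher and between 8 and 10 lower. With a log2 fold change of 1 or more in size also required, 1083 genes were higher and 640 lower, with 3 members higher and 0 lower: 1 of homologous recombination, 1 of Fanconi anemia and 1 of the checkpoint kinases were higher, 0 of these routes were lower, and 0 of mismatch repair, end joining, break sensing, strand break signalling and resection were called either way. At an adjusted p under 0.01, 17 members were higher and 8 lower, as Fancl and Rad52 lost their calls, which left 1 homologous recombination gene lower in place of 2.

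The median log2 fold change of all genes was -0.0058 with TMM, -0.0153 when scaled by library size, -0.0065 with DESeq2 and 0.0167 with no filter, and ran from 0.0037 to 0.0194 with each library left out. In the same fits with a library left out, the median of the members ran from 0.153 to 0.230, that of end joining from -0.351 to -0.250, and 1 or 2 homologous recombination genes were lower. The homologous recombination median, near 0, ran from -0.0327 to 0.0354 over all refits and has no stable sign. After subtraction of chromosome medians the medians were 0.165 for all members, 0.0585 for homologous recombination, 0.0262 for mismatch repair, -0.0565 for end joining and 0.561 for the checkpoint kinases. In all, 7 members changed sign: Msh3 and Prkdc, which had been called lower, to 0.0262 and 0.0049, and 5 that were not called, Brca2 to 0.138, Xrcc5 to 0.155, Polq to 0.174, Xrcc6 to -0.0565 and Nbn to -0.0907.

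No pairing by replicate number was seen. Same-numbered P and AxR libraries had correlations of deviations of -0.0213, -0.0061 and -0.0217, and differently numbered ones between -0.0011 and 0.0201. With 3 libraries per line, these values cannot exclude a pairing. With the replicate block, 4304 genes were higher and 4023 lower, and 18 members were higher and 9 lower. Depth limits the members with the fewest reads (Palb2, Rad51b, Rad51c, Fancc, Fancf and Fancg, at P means of 2.59 to 5.88 CPM), whose standard errors of 0.13 to 0.18 exceeded those of all other members.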

Other observations

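In translesion synthesis, by which specialised polymerases copy past damage, 5 of 10 genes were higher in AxR and 2 were lower (median 0.37). For comparison, 32.8% of all genes tested were higher and 30.8% were lower. After subtraction of chromosome medians the translesion median was 0.14. Polh, the polymerase that copies past ultraviolet lesions, had 13.9, 13.9 and 14.1 CPM in P and 26.1, 24.7 and 24.7 CPM in AxR, with no overlap (log2 fold change 0.85 ± 0.08 SE, edgeR adjusted p = 1.49e-07). Hltf, a translocase that acts at stalled forks, rose by 1.10 ± 0.06 and Primpol, which restarts synthesis past lesions, was lower at -0.44 ± 0.06 on the log2 scale.

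Nucleotide excision repair, which cuts out bulky lesions, had 8 genes higher and 8 lower of 19 (median 0.09). Ercc8, needed for repair of transcribed strands, had 15.0, 17.4 and 14.2 CPM in P and 8.76, 8.29 and 8.93 CPM in AxR, a clear separation of the lines (log2 fold change -0.84 ± 0.11 SE, edgeR adjusted p = 5.06e-06). Subunits of the transcription factor TFIIH, which opens DNA around the lesion, went both ways, with Gtf2h4 at 0.71 ± 0.11 and Gtf2h3 at -0.68 ± 0.10 on the log2 scale. Over all 117 other repair genes tested, 44 were higher (37.6%, against 32.8% of all genes) and 35 were lower (29.9%, against 30.8%), shares close to those of all genes tested (median 0.08).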
